A study of Mus musculus with 6 samples.

Results

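The transcripts of 9 citrate cycle enzymes were measured in 2 mouse liver lines: Cs, Idh1, Idh2, Idh3a, Ogdh, Dlst, Suclg1, Fh1 and Mdh2. They were taken by gene symbol from a table of 24054 genes, and all 9 were found and passed the filter on low counts, as did 10975 genes in all. The parental line, TIBx of genotype WT, was compared with TIBxDNAJ-PKAc of genotype DNAJ-PKAc, which carries the fusion kinase of fibrolamellar liver carcinoma. Each group had 3 libraries of total RNA, replicates A to C. The cell type given for both is BNL 1ME A.7R.1, from liver, and both were grown in the same medium, which contained serum, added glutamine and pyruvate. The series title names metabolic rewiring and a dependency on glutamine, and the comparison asks how the enzyme transcripts differed between the lines. There was 1 line per genotype, and the labels do not say whether it was a single clone, so a difference between lines and an effect of the fusion cannot be told apart. Nor do the labels state separate cultures for the replicates; p-values therefore reflect only how these libraries spread, which may be technical.

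The citrate cycle runs in the mitochondrial matrix. It joins an acetyl group to oxaloacetate, oxidises the resulting citrate stepwise to carbon dioxide and returns oxaloacetate, handing electrons to the respiratory chain. Its intermediates are also drawn off for lipids, amino acids and glucose, and glutamine can enter the cycle as alpha-ketoglutarate. In proliferating cells a cytosolic and a mitochondrial NADP-dependent isocitrate dehydrogenase run beside the NAD-dependent enzyme of the cycle.

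Promoter sequences were read from RefSeq (GRCm38.p6, the assembly of mm10) for 8 of the 9 genes, in windows of 300 bases that run from 250 before to 50 after each listed transcription start. A full cyclic AMP response element, TGACGTCA, is the palindrome that CREB binds. It was found in the windows of 2 of the 8 genes, Mdh2 and Ogdh, and in 1.79% of the 32851 windows of all genes. A gene counted if any of its windows matched, and Ogdh had 6 windows and Idh1 had 2. Shares of windows are therefore not a like background for counts of genes, here and for the other motifs. The Mdh2 and Ogdh stretches are shown because they hold the full element. Mdh2 and Ogdh had the closest profiles of any 2 members. They were also the only members whose fitted difference lay below 0. Both had their highest level in WT B, and without WT B their differences were 0.36 (Mdh2) and 0.17 (Ogdh). A link between the element and these levels was not tested. The Cs promoter is shown beside them because Cs was the only member that passed the test. Capitals mark the element; each stretch is on the plus strand, the coding strand of all 3 genes.
Mdh2 (chr5:135778482-135778569): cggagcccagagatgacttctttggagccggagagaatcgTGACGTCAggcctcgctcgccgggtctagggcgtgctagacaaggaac
Ogdh (chr11:6291506-6291593): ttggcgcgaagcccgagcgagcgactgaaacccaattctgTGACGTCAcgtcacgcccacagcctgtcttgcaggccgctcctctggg
Cs (chr10:128337477-128337726): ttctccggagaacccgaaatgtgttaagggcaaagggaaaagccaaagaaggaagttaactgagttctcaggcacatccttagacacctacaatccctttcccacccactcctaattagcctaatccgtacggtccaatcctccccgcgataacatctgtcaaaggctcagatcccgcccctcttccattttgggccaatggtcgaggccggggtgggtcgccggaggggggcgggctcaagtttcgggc

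The element began 127 bases before the Mdh2 start and 51 bases before the first listed Ogdh start, and the window of each of 3 listed Ogdh starts held the same copy. The shorter form TGACG, which lies within the full element and was searched on both strands, was present for 4 of the 8 genes (Fh1, Mdh2, Suclg1 and Ogdh) and in 20.8% of all windows. An E box, CACGTG, was present for 1 gene, Ogdh, and in 7.15% of all windows. The element of estrogen-related receptors, TCAAGGTCA (0.423% of all windows), matched no member window. Neither did the palindrome of the respiratory factor NRF1, searched in an exact form (0.971%) and with free middle bases (6.23%). The Cs window held none of the 6 motifs. A match is a run of letters and does not show that a factor binds there.

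A library held between 8095549 and 9969590 expected counts in all, and the 54 member values ran from 481 to 7324 counts, all whole, so that counting error was at most 4.56% of a value. Levels are given as CPM, counts scaled to a common library total with TMM factors, and differences as DNAJ-PKAc minus WT on the log2 scale with the standard error (SE). Prkaca, which encodes the kinase part of the fusion, was read as a check of the labels: it was found at 63.6, 87.6 and 79.2 CPM in the WT libraries A to C, whereas DNAJ-PKAc A to C held 131, 120 and 95.7 CPM. These did not overlap, but the difference of 0.59 (SE 0.19) missed the threshold of 0.05 (edgeR quasi-likelihood test, adjusted p = 0.154); it passed without DNAJ-PKAc C (0.71, adjusted p = 0.0242). Dnajb1, the other partner, differed by 0.00 (SE 0.23, edgeR adjusted p = 0.999). Of 8 hepatocyte markers 7 were in the table, and 6 of them, among them Alb and Hnf4a, were at 0 in every library. The label of a liver line is therefore not borne out by mature hepatocyte transcripts. Of 4 fetal liver markers, Igf2, H19 and Dlk1 were at 0 throughout. The other, Afp, was at 0 to 0.34 plain CPM in WT and 2.24 to 10.3 in DNAJ-PKAc. The 6 fibroblast or stellate markers summed to 6579, 8553 and 7380 plain CPM in WT A to C. In DNAJ-PKAc A to C they summed to 3746, 3483 and 11717, so A and B lay below every WT library and C above. Col1a2 made up most of each sum, at 3257 to 10771 plain CPM. Among the same markers Col1a1 was at 66.5 to 495 plain CPM, Pdgfra at 69.4 to 204 and Pdgfrb at 90.0 to 335. Lrat was at 0 throughout and Des at no more than 0.62 plain CPM. The 5 leukocyte markers in the table, with Ptprc at 0 throughout, summed to at most 5.06 plain CPM. In these bulk samples fewer cells of a type and less RNA per cell cannot be told apart. 2 libraries stood apart. In WT B the nuclear RNA Malat1 was at 10412 plain CPM, against 2093 and 2578 in WT A and C. In DNAJ-PKAc A to C it was at 1065, 1151 and 4639 plain CPM. The ribosomal precursor Rn45s took 2.66% of the counts in WT B, against 0.912% to 1.05% in the others. In DNAJ-PKAc C the median of 15 cell cycle genes lay 1.37 below the WT mean on the log2 scale (-1.37), against 1.87 and 1.89 in DNAJ-PKAc A and B. Over all genes tested, the log2 CPM of DNAJ-PKAc C correlated at 0.914 and 0.911 with DNAJ-PKAc A and B (Pearson's r). Its correlations with WT A to C were 0.928, 0.912 and 0.933.

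Of the 9 genes, 1 rose in DNAJ-PKAc and 0 fell (edgeR, p adjusted by Benjamini-Hochberg over the 10975 genes tested, threshold 0.05). Over all genes tested, 1.37% rose and 2.14% fell. The gene that rose was Cs, citrate synthase. DESeq2 (3.17% of all genes higher, 5.71% lower) and limma-voom (1.29% and 2.27%) gave the same counts for the members. At an unadjusted p under 0.05 the members counted 3 higher (Cs, Idh1 and Idh2) and 0 lower, where 11.8% and 9.72% of all genes were. The fitted differences lay above 0 for 7 members and below 0 for 2, with a median of 0.31, beside a median of 0.05 over all genes tested, of which 53.9% lay above 0. In 4 members, Cs, Idh1, Idh2 and Dlst, all 3 DNAJ-PKAc libraries exceeded all 3 WT libraries, as they did in 15.8% of all genes tested. In 0 members all 3 lay below, as 13.1% of all genes did. Reading the 9 transcripts as a sum, WT A to C held 1323, 1509 and 1330 CPM and DNAJ-PKAc A to C held 1979, 1977 and 1794 CPM, without overlap. Cs alone made up 28.1% of that sum in WT and 36.9% in DNAJ-PKAc, as means of 3 libraries.

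**Figure D1:**
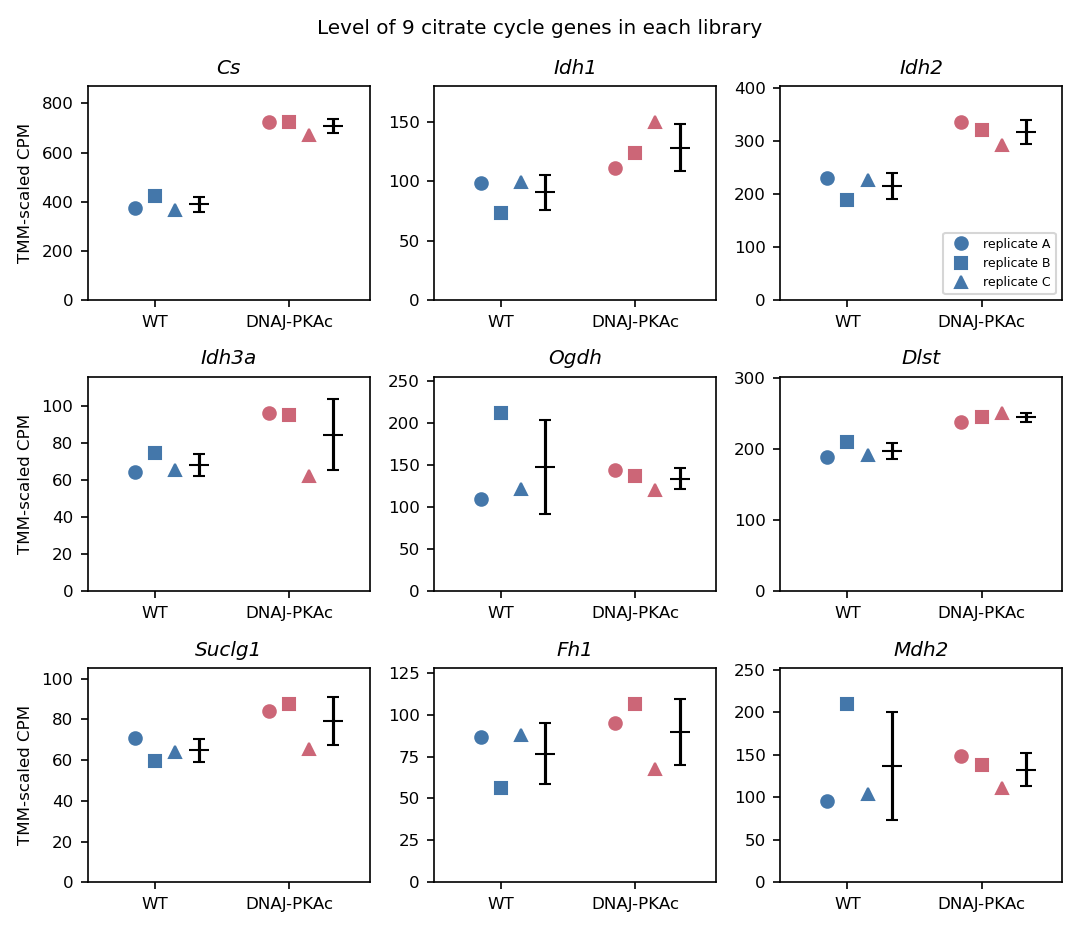
Level of each of the 9 genes in the 6 libraries, in TMM-scaled CPM on linear axes from 0; circles, squares and triangles are replicates A, B and C, and black bars give the mean and SD of 3 libraries. The groups separate for Cs, Idh1, Idh2 and Dlst, and the WT B square is the highest of the 6 values for Ogdh (212) and Mdh2 (210).

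Entry into the cycle is catalysed by citrate synthase, which condenses acetyl-CoA with oxaloacetate. Cs (chromosome 10, 128337727 to 128362482 in mm10) was measured at 376, 425 and 369 CPM over WT A to C, against 725, 724 and 673 CPM over DNAJ-PKAc A to C. The lowest DNAJ-PKAc library lay well above the highest WT library, and the libraries within each group were close together. The means were 390 ± 30.3 and 707 ± 29.5 CPM (SD, n = 3), a fold of 1.81 with a 95% interval of 1.43 to 2.30 (log2 0.86, SE 0.15, edgeR adjusted p = 0.0273). DESeq2 and limma-voom also called it. A small nucleolar RNA gene, Gm23182, shares 135 bases with the span of Cs, introns included, on the same strand. The size of the difference moved little when any 1 library was left out, between 0.82 and 0.90, but the adjusted p ran from 0.00548 to 0.144. Only the fit without DNAJ-PKAc C kept Cs past the threshold (edgeR adjusted p = 0.00548), and the fits without WT A, B or C or without DNAJ-PKAc A or B gave 0.140, 0.0544, 0.139, 0.144 and 0.136. Those 5 fits called between 77 and 110 genes in all, against 385 with the 6 libraries.

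Isocitrate is oxidised to alpha-ketoglutarate by 3 kinds of enzyme. Idh1 encodes the cytosolic NADP-dependent enzyme (chromosome 1, 65158616 to 65186479, minus strand). It was found at 98.8, 73.5 and 99.7 CPM in the WT libraries A to C, whereas DNAJ-PKAc A to C held 111, 124 and 150 CPM. The groups did not overlap, WT B was the lowest library and DNAJ-PKAc C the highest, and the difference of 0.50 (SE 0.19, 95% interval 0.05 to 0.95) missed the threshold (edgeR adjusted p = 0.204). Without WT B, the difference was 0.33 (edgeR adjusted p = 0.354).

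Idh2 encodes the mitochondrial NADP-dependent enzyme (chromosome 7, 80094845 to 80118608, minus strand). It was measured at 231, 188 and 227 CPM over WT A to C, against 336, 320 and 292 CPM over DNAJ-PKAc A to C. Here too the groups were apart, with WT B lowest, and the fold was 1.47 with a 95% interval of 1.14 to 1.90 (log2 0.55, SE 0.16, edgeR adjusted p = 0.116). Without DNAJ-PKAc C the difference of 0.61 passed the threshold (edgeR adjusted p = 0.0248), in a fit where 14.3% of all genes rose. With any other library left out Idh2 did not pass (edgeR adjusted p from 0.209 to 0.372), and without WT B its difference was 0.43. The span of the gene model Gm45203, introns included, shares 1831 bases with that of Idh2 on the same strand. Overlap of exons was not measured, so the part of the Idh2 count that this makes uncertain is not known.

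Idh3a encodes the catalytic alpha subunit of the NAD-dependent enzyme, the form that belongs to the cycle proper (chromosome 9, 54586511 to 54604662). It was found at 64.3, 74.7 and 65.5 CPM in the WT libraries A to C, whereas DNAJ-PKAc A to C held 96.3, 94.97 and 62.4 CPM. DNAJ-PKAc A and B lay above every WT library while DNAJ-PKAc C was the lowest of the 6, and the difference was 0.31 (SE 0.20, 95% interval -0.17 to 0.79, edgeR adjusted p = 0.395). Without DNAJ-PKAc C it was 0.49 and passed (edgeR adjusted p = 0.0378), again where 14.3% of all genes rose. With any other library left out Idh3a did not pass (edgeR adjusted p from 0.476 to 0.715). The other subunits, Idh3b and Idh3g, differed by 0.20 and 0.13 (edgeR adjusted p = 0.460 and 0.746).

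The ratio of the isocitrate dehydrogenase transcripts to each other was compared within libraries. Idh2 over Idh1 was 2.34, 2.56 and 2.27 over WT A to C and 3.03, 2.59 and 1.95 over DNAJ-PKAc A to C, so DNAJ-PKAc held both the highest and the lowest ratio. The log2 ratio differed by 0.06 (2-sided exact permutation test, p = 0.8). Idh3a over the sum of Idh1 and Idh2 was 0.195, 0.285 and 0.201 in WT and 0.215, 0.214 and 0.141 in DNAJ-PKAc (log2 difference -0.26, exact permutation test, p = 0.6). That difference was -0.084 without WT B and -0.059 without DNAJ-PKAc C. With 3 libraries against 3 this test cannot go below 0.10, and 4 ratios were tested, so none could pass.

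Alpha-ketoglutarate is then decarboxylated to succinyl-CoA by a complex of 3 enzymes. Ogdh encodes the decarboxylating dehydrogenase (chromosome 11, 6291597 to 6359094). It was measured at 110, 212 and 122 CPM over WT A to C, against 144, 137 and 120 CPM over DNAJ-PKAc A to C. WT B was the highest of the 6 libraries and 1.83 times the mean of WT A and C, and the groups overlapped. The difference was -0.14 (SE 0.27, 95% interval -0.77 to 0.48, edgeR adjusted p = 0.775), and without WT B it was 0.17 (adjusted p = 0.565), which turns its direction.

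Dlst encodes the succinyltransferase core of the same complex (chromosome 12, 85110822 to 85134091). It was found at 189, 211 and 192 CPM in the WT libraries A to C, whereas DNAJ-PKAc A to C held 239, 246 and 251 CPM. All DNAJ-PKAc libraries lay above all WT libraries, and the spread within groups was the smallest among the members relative to the level in DNAJ-PKAc (245 ± 6.28 CPM, SD, n = 3). The fold was 1.24 with a 95% interval of 0.993 to 1.56 (log2 0.31, SE 0.14, edgeR adjusted p = 0.241). Dld, which encodes the third enzyme and is shared with the pyruvate dehydrogenase complex, differed by 0.15 (edgeR adjusted p = 0.587). Dlst over Ogdh was 1.72, 0.991 and 1.58 in WT and 1.65, 1.79 and 2.09 in DNAJ-PKAc, with WT B alone below 1.5 (log2 difference 0.40, exact permutation test, p = 0.2). Without WT B that difference was 0.16.

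Succinyl-CoA is turned to succinate by succinyl-CoA ligase, which makes a nucleoside triphosphate. Suclg1 encodes its alpha subunit, common to the ATP- and GTP-forming enzymes (chromosome 6, 73248505 to 73276907). It was measured at 70.9, 59.4 and 63.9 CPM over WT A to C, against 84.2, 87.7 and 65.7 CPM over DNAJ-PKAc A to C. DNAJ-PKAc C lay within the WT range and A and B above it, with a difference of 0.29 (SE 0.17, 95% interval -0.11 to 0.69, edgeR adjusted p = 0.345). The beta subunits Sucla2 and Suclg2, which set the nucleotide, differed by 0.49 and 0.20 (edgeR adjusted p = 0.229 and 0.597).

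Fumarate is hydrated to malate by fumarase, encoded by Fh1 (chromosome 1, 175601378 to 175625635, minus strand). It was found at 86.4, 56.1 and 87.9 CPM in the WT libraries A to C, whereas DNAJ-PKAc A to C held 94.8, 106 and 67.8 CPM. WT B was the lowest library, DNAJ-PKAc C lay below WT A and C, and the difference was 0.22 (SE 0.25, 95% interval -0.36 to 0.80, edgeR adjusted p = 0.612). Without WT B it was 0.00 (adjusted p = 0.997). Kmo, which overlaps Fh1 on the opposite strand, had 0 counts in all 6 libraries.

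Malate is oxidised back to oxaloacetate by mitochondrial malate dehydrogenase, encoded by Mdh2 (chromosome 5, 135778649 to 135790386). It was measured at 95.9, 210 and 104 CPM over WT A to C, against 148, 138 and 111 CPM over DNAJ-PKAc A to C. WT B was 2.10 times the mean of WT A and C, a log2 gap above that of 94.2% of all genes tested, and every DNAJ-PKAc library lay between WT B and the other two. The difference was -0.05 (SE 0.32, 95% interval -0.80 to 0.70, edgeR adjusted p = 0.941), and it was 0.36 without WT B (adjusted p = 0.352). Cs over Mdh2, the enzymes that use and make oxaloacetate, was 3.92, 2.02 and 3.54 in WT and 4.89, 5.25 and 6.08 in DNAJ-PKAc. These ratios did not overlap (log2 difference 0.82, or 0.53 without WT B), and the exact permutation test gave the smallest p it can, 0.1, or 0.4 adjusted over the 4 ratios.

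**Figure D2:**
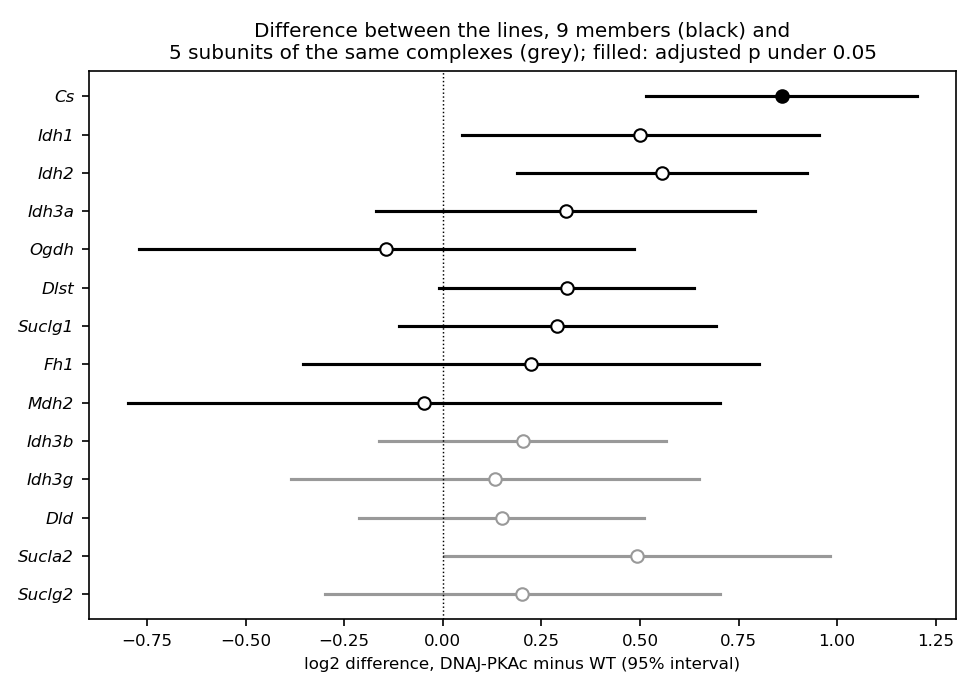
Fitted log2 difference, DNAJ-PKAc minus WT, with its 95% interval from the edgeR fit, for the 9 members in black and 5 further subunits of their complexes in grey; filled points passed an adjusted p of 0.05. Cs alone is filled, and the intervals of Ogdh and Mdh2 are the widest of the 9, from -0.77 to 0.48 and from -0.80 to 0.70.

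Across the 6 libraries the members did not form a single profile. Over 36 pairs of members Pearson's r of log2 CPM ran from -0.64 (Idh1 and Ogdh) to 0.98 (Ogdh and Mdh2), with a median of 0.48 and 8 pairs below 0; these points share 6 libraries and their group means. Ogdh and Mdh2 followed each other, and so did Cs and Dlst (r = 0.97). WT B lay above both other WT libraries for Cs, Idh3a, Ogdh, Dlst and Mdh2 and below both for Idh1, Idh2, Suclg1 and Fh1. The part that the RNA makeup of WT B plays in these values was not tested. DNAJ-PKAc C, the library with low cell cycle genes, lay below DNAJ-PKAc A and B for 7 members and above both for Idh1 and Dlst. Against the mean of A and B it was at -0.61 for Idh3a and -0.57 for Fh1 on the log2 scale, but at -0.11 for Cs and 0.36 for Idh1. The part of the cell cycle genes in these gaps was not tested.

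**Figure D3:**
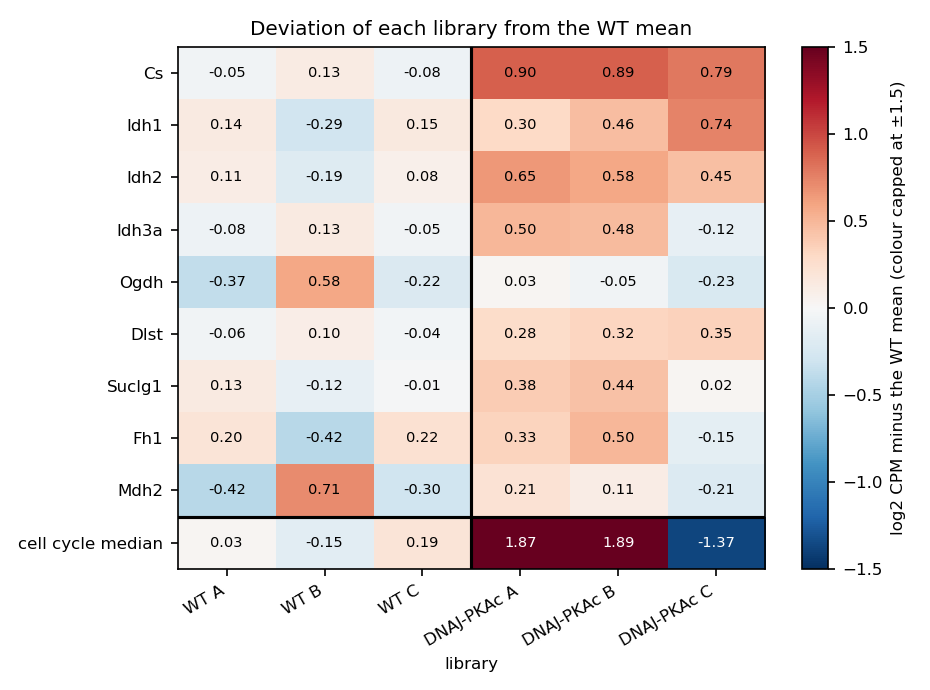
Log2 CPM of each library minus the WT mean for the 9 members (rows) and, under the line, the median of 15 cell cycle genes; columns are the 6 libraries, and the colour is capped at 1.5 in either direction. Cs stays between 0.79 and 0.90 in all 3 DNAJ-PKAc libraries, while Idh3a goes from 0.50 and 0.48 in A and B to -0.12 in C.

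The count of members called, 1 with all libraries, changed when any 1 of the 6 was left out. Without DNAJ-PKAc C, 3 of 9 rose and 0 fell, Cs, Idh2 and Idh3a, where 14.3% of all genes tested rose and 11% fell. Without both WT B and DNAJ-PKAc C, a choice made after the data were seen that leaves the closest pair of each group, 6 of 9 rose (Cs, Idh2, Idh3a, Dlst, Suclg1 and Mdh2) and 0 fell, where 23.9% of all genes rose and 24.5% fell. All 9 differences were then above 0, and Mdh2 was at 0.47 (edgeR adjusted p = 0.00120) and Ogdh at 0.24 (0.0668). Without any 1 of the other 5 libraries, 0 members passed; in those 5 fits 0.171% (WT A or C), 0.235% (WT B), 0.243% (DNAJ-PKAc A) and 0.225% (DNAJ-PKAc B) of all genes rose.

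**Figure D4:**
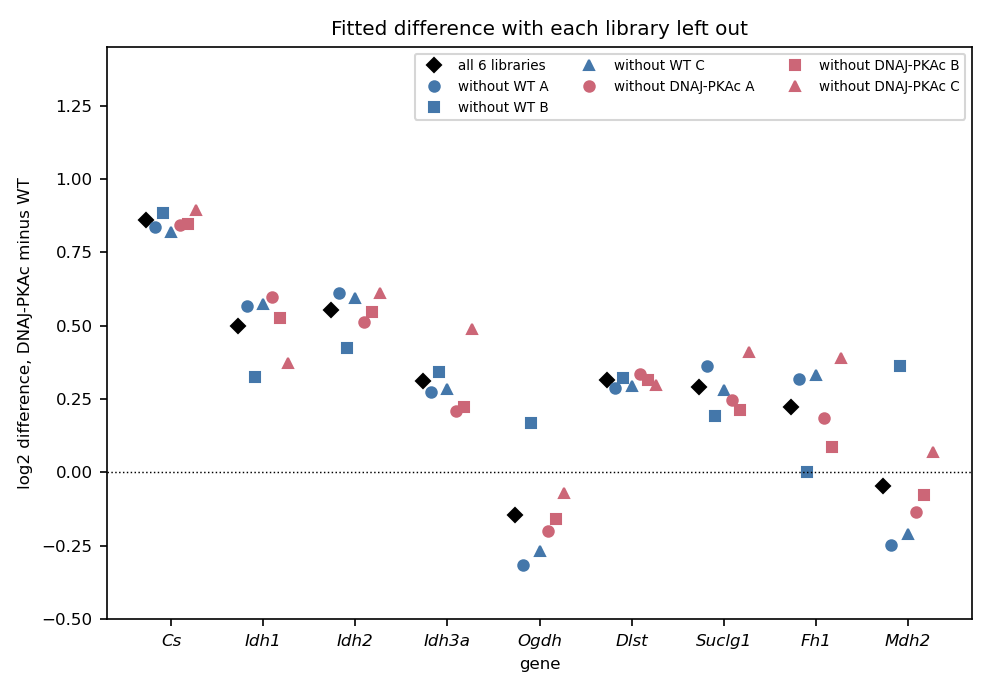
Fitted log2 difference of each member with all 6 libraries (black diamonds) and with each library left out, blue for WT, red for DNAJ-PKAc and shapes as replicates. Cs stays between 0.82 and 0.90, whereas leaving out WT B moves Mdh2 from -0.05 to 0.36 and Ogdh from -0.14 to 0.17.

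Per length, CPM were divided by the longest coding transcript of each gene in kilobases, which allows levels to be set between genes. In WT the order of mean levels was Cs (133 ± 10.4 CPM per kb, SD, n = 3), Idh2 (123 ± 13.5), Mdh2 (93.9 ± 43.8), Dlst (71.4 ± 4.18), Suclg1 (42.6 ± 3.81), Idh1 (39.4 ± 6.46), Ogdh (35.9 ± 13.6), Fh1 (29.1 ± 6.79) and Idh3a (26.4 ± 2.20). Only Dlst and Suclg1 were neighbours whose library ranges were separate. In DNAJ-PKAc the 4 highest kept that order, with Cs at 242 ± 10.1 and Idh2 at 181 ± 12.8 CPM per kb, now with separate ranges between Cs and Idh2 and between Idh2 and Mdh2 (90.9 ± 13.3). Of the subunits of the NAD-dependent enzyme, Idh3a was lower per kb in WT than Idh3b (74.6 ± 9.47) and Idh3g (57.7 ± 11.6), with separate ranges. Dlst was above Ogdh and Dld (27.4 ± 3.34), again with separate ranges.

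The other 13 genes of the cycle had 12 tested. Of these 0 rose or fell by edgeR, where 1.37% of all genes tested rose and 2.14% fell, and 0 did by DESeq2 and by limma-voom. At an unadjusted p under 0.05, 3 were higher and 0 lower, where 11.8% and 9.72% of all genes were. All 12 lay above 0, as 53.9% of all genes did, with a median of 0.24 beside 0.05 over all genes. With RLE or upper-quartile factors 11 of 12 lay above 0. Aco1, which encodes the cytosolic aconitase that also senses iron, was found at 49.97, 47.3 and 45.7 CPM in the WT libraries A to C, whereas DNAJ-PKAc A to C held 68.7, 72.0 and 58.0 CPM. The difference was 0.48 (SE 0.15, edgeR adjusted p = 0.147). Its groups were apart, as for 5 of the 12 and for 15.8% of all genes in the higher direction. Aco1 passed without DNAJ-PKAc C (edgeR adjusted p = 0.0212), a fit in which 14.3% of all genes rose and 11% fell. Sdha, the flavoprotein of succinate dehydrogenase, had the smallest difference, 0.01 (adjusted p = 0.982). Ogdhl, a relative of Ogdh, had at most 12 counts in a library and was not tested.

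Of 35 genes that feed or drain the cycle, 32 were tested, with a median difference of 0.40 beside 0.05 over all genes. By edgeR 1 rose and 0 fell, where 1.37% of all genes tested rose and 2.14% fell. The 1 was Pcx, pyruvate carboxylase, which makes oxaloacetate from pyruvate. It was measured at 9.97, 12.02 and 9.94 CPM over WT A to C, against 63.7, 60.4 and 50.6 CPM over DNAJ-PKAc A to C, a fold of 5.47 with a 95% interval of 4.07 to 7.35 (edgeR adjusted p = 0.00188), and it passed in all 16 fits run. Pdk1, a kinase that switches pyruvate dehydrogenase off, was found at 169, 149 and 157 CPM in the WT libraries A to C, whereas DNAJ-PKAc A to C held 96.1, 106 and 95.9 CPM. Its groups did not overlap, and its difference of -0.67 (SE 0.14) just missed the threshold (edgeR adjusted p = 0.0520), while DESeq2 called it (adjusted p = 0.000592). The citrate carrier Slc25a1 (0.61, edgeR adjusted p = 0.0759) and the aspartate-glutamate carrier Slc25a12 (0.67, 0.0604) did not pass by edgeR and passed by DESeq2 (adjusted p = 0.0116 and 0.00974). Pdk2 was at -1.49 (SE 0.59, edgeR adjusted p = 0.209), at no more than 9.22 CPM in any library.

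The genes most like the members were sought among 8825 others of at least 10 mean CPM, by Pearson's r with the members' mean centred log2 CPM over 6 libraries. The first 5 were Ppp6r3 (r = 0.999), Fastkd3 (0.994), Ipo8, Slc19a1 and Txnrd1 (0.992), and 412 genes had r above 0.9. With 6 points that share their groups, such values are a description. Of the 5 only Txnrd1, thioredoxin reductase, rose, at 142, 155 and 134 CPM in WT and 433, 435 and 236 CPM in DNAJ-PKAc (log2 1.36, edgeR adjusted p = 0.0375). Its call was lost without any 1 library but DNAJ-PKAc C (edgeR adjusted p from 0.123 to 0.158), and Fastkd3, Ipo8 and Slc19a1 passed without DNAJ-PKAc C.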

How the data were processed

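Total RNA of 6 libraries, 3 WT and 3 DNAJ-PKAc, was made with a stranded kit, per the labels' protocols. The authors deposited expected counts per gene symbol, not normalized, per the file headers. The submitters' processing notes list STAR 2.5.2b, RSEM 1.3.0 and mm10. For annotation, filters and strand setting, nothing is given in the sources used here.

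Counts were rounded, filtered with filterByExpr (minimum count 10), TMM-scaled and fitted with edgeR 4.0.16 in R 4.3.3 (robust quasi-likelihood, group only, 2-sided, Benjamini-Hochberg adjusted over 10975 genes, threshold 0.05). Standard errors are the difference divided by the square root of F, and 95% intervals use the fit's degrees of freedom. Alternatives were RLE and upper-quartile scaling, no filter, 1 CPM in 3 libraries, DESeq2 1.42.0, limma-voom (3.58.1), no robust option, a replicate block, a threshold of 0.01 and each library left out. Log2 CPM profiles used a prior count of 2. Lengths are from GENCODE M21, loci and promoters from RefSeq on GRCm38.p6.

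The members and lists were chosen with earlier results of these data known. Named were all members, every called gene of the 2 further lists with the 2 of smallest adjusted p in each direction, and the 5 genes most like the members (1 gene this rule names is not reported here); the values of other cycle subunits and the stretches shown were chosen after their values were seen. Counting intervals are not given for levels, whose error is the spread between libraries.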

Additional observations from a re-analysis of the deposited data

How the results depend on the processing

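Of 135 member results under alternatives, 116 kept their direction and side of the threshold. For members that were not called, keeping their side means only that they stayed uncalled. Cs, the only member called, kept its call in 9 alternatives and lost it in 6, among them the replicate block (0.86, edgeR adjusted p = 0.0890). Ogdh turned to 0.24 with WT B and DNAJ-PKAc C left out together, and ran from -0.32 to 0.17 with each library left out. Mdh2 turned to 0.036 by limma-voom, 0.037 with the replicate block and 0.47 with both those libraries left out, and to between -0.25 and 0.36 with each library left out. Dnajb1, at 0.00, turned to -0.0402 by RLE factors, -0.0401 by DESeq2, -0.0683 by upper-quartile factors, -0.0329 by limma-voom and -0.0332 with the block, and ran from -0.14 to 0.21 with a library left out. Idh2 over Idh1 turned from 0.06 to -0.089 without DNAJ-PKAc A, and ran from -0.089 to 0.23 with a library left out. The causes were not tested.

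The members called, 1, were 0 at a threshold of 0.01 and with the replicate block, 6 with both libraries left out, and 0 to 3 with a library left out. All genes called, 385, were 72 at 0.01, 974 by DESeq2 (348 higher and 626 lower), 199 with the block, 5336 with both left out, and 77 to 2808 with a library left out. The other cycle genes called, 0, were 4 of 12 with both left out, all higher, where 23.9% of all genes rose and 24.5% fell. Without DNAJ-PKAc C they were 2, both higher, where 14.3% of all genes rose and 11% fell. They were 0 with any other library left out. Feeding and draining genes called, 1, were 2 by RLE, upper-quartile, limma-voom and no robust option. By DESeq2 they were 4, 3 higher and 1 lower, where 3.17% of all genes rose and 5.71% fell. With both left out they were 21 of 32, 16 higher and 5 lower, beside the shares of 23.9% and 24.5%. Without DNAJ-PKAc C they were 15, 11 higher and 4 lower, beside 14.3% and 11%. They were 1 with any other library left out. The split of all calls, 150 higher and 235 lower, was 114 and 295 with upper-quartile factors.

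Replicate letters did not pair the libraries: deviations from the group means correlated at 0.21 for A, -0.20 for B and 0.03 for C, and WT A correlated better with DNAJ-PKAc B (0.30), so the block result rests on a shared letter only.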
